A study of Rattus norvegicus with 12 samples.

Results

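The genes described here are 37 genes of DNA crosslink, recombination and excision repair, measured in the renal cortex of rats given cisplatin. They are subunits of the Fanconi anaemia pathway, the BRCA proteins, other recombination factors, nucleotide excision repair factors, translesion polymerases and the mismatch factor Msh6. The genes were chosen by name, as genes of the pathways that act on platinum adducts. Of the 37 genes, 24 were matched by accession to 41 probes among 15645 named genes on the array, and 23 were bright enough to be tested. The other 13 (Fanca, Fancf, Fancg, Fancm, Fanci, Brip1, Rad51b, Xrcc3, Ercc4, Ercc5, Slx4, Rev1 and Msh6) are not analysed here.

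Each of 12 rats, male Sprague-Dawley (Crl:CD(SD)) animals bought at 5 weeks of age, gave total RNA of the kidney cortex for its own 1-colour Agilent array. The 4 groups of 3 animals were cisplatin by gavage at 3.75 mg/kg/day, water by gavage, cisplatin by intravenous injection at 0.75 mg/kg/day, and water by intravenous injection. Treatment lasted 4 weeks. Route, dose and experiment changed together, and the intravenous dose is that of the sample labels, while a protocol text common to all samples gives 3.75 mg/kg/day. Levels are log2 processed intensities minus the 75th percentile of the same array, so that 0 is the 75th percentile and each unit is a doubling. Changes are cisplatin minus water in log2 units with their standard error (SE), tested with limma over 34444 features and called at a Benjamini-Hochberg adjusted p under 0.05.

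Cisplatin binds DNA bases and ties them together, within a strand or across both strands. Ties within a strand are removed by nucleotide excision repair, in which damage is sensed, the helix is opened by the helicases of TFIIH, and the damaged stretch is cut out by nucleases. Ties across strands block replication forks and are handled by the Fanconi anaemia pathway: a core complex attaches ubiquitin to FANCD2 and FANCI, nucleases unhook the tie, translesion polymerases copy past it, and the BRCA proteins with other recombination factors rebuild the broken strand by recombination. Proximal tubule cells of the cortex take up cisplatin and are the known site of its kidney toxicity.

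Correlations between arrays of a group lay at r = 0.981 to 0.993 across the features tested. The signal at the 75th percentile was 1439 to 1532 on the cisplatin gavage arrays against 970 to 1020 on the water gavage arrays, and 1387 to 1407 on the cisplatin intravenous arrays against 1008 to 1055 on the water intravenous arrays. Because the levels are set against this percentile, the changes are relative. When the arrays were scaled by 7 spike-in control probes instead, the median change of all features moved to 0.67 in the gavage experiment and to 0.50 in the intravenous one, against 0.01 and -0.06 with the 75th percentile. Falls that did not hold with this scaling are marked where they are given. Transcripts of the cortex's own cells were altered broadly: all 8 proximal tubule markers fell in the gavage experiment and 7 of 8 in the intravenous one (7 and 6 with spike-in scaling). Their summed linear level was 124 to 245 times the 75th percentile in cisplatin gavage rats against 1561 to 1739 in water gavage rats, and 210 to 584 in cisplatin intravenous rats against 1376 to 1587 in water intravenous rats. Such values come from whole cortex, so fewer cells of a type and less RNA per cell cannot be told apart.

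In the gavage experiment 10 of the 23 genes tested rose, 6 fell and 7 did not pass. In the intravenous experiment 10 rose, 2 fell and 11 did not pass. Brca1, counted among those that rose, had entered the test only through the cisplatin gavage group, where it was high. The genes called made up 69.6% of those tested after gavage, where 59.3% of all 34444 features were called (29.5% higher, 29.8% lower). After intravenous injection the share was 52.2% against 58.4% of all features (26.4% higher, 32.0% lower). The counts of repair genes called in either direction were therefore near the background of this tissue, in which more than every other feature was called. The median change of the 23 genes was 0.10 after gavage and 0.08 after injection, and both medians stayed the same with Brca1 set at its lower bound. With spike-in scaling the split was 17 higher and 0 lower after gavage, and 20 higher and 1 lower after injection. Most features rose with this scaling: of all 34444, 21574 were higher and 3250 lower after gavage, and 18418 higher and 3190 lower after injection. Relative to the median of all features, 13 of the 23 genes lay above it after gavage and 17 after injection, which spike-in scaling cannot alter, since it shifts all features of an array alike. Those counts were 12 and 15 with quantile normalization and 15 and 20 with normexp background correction.

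**Figure D1:**
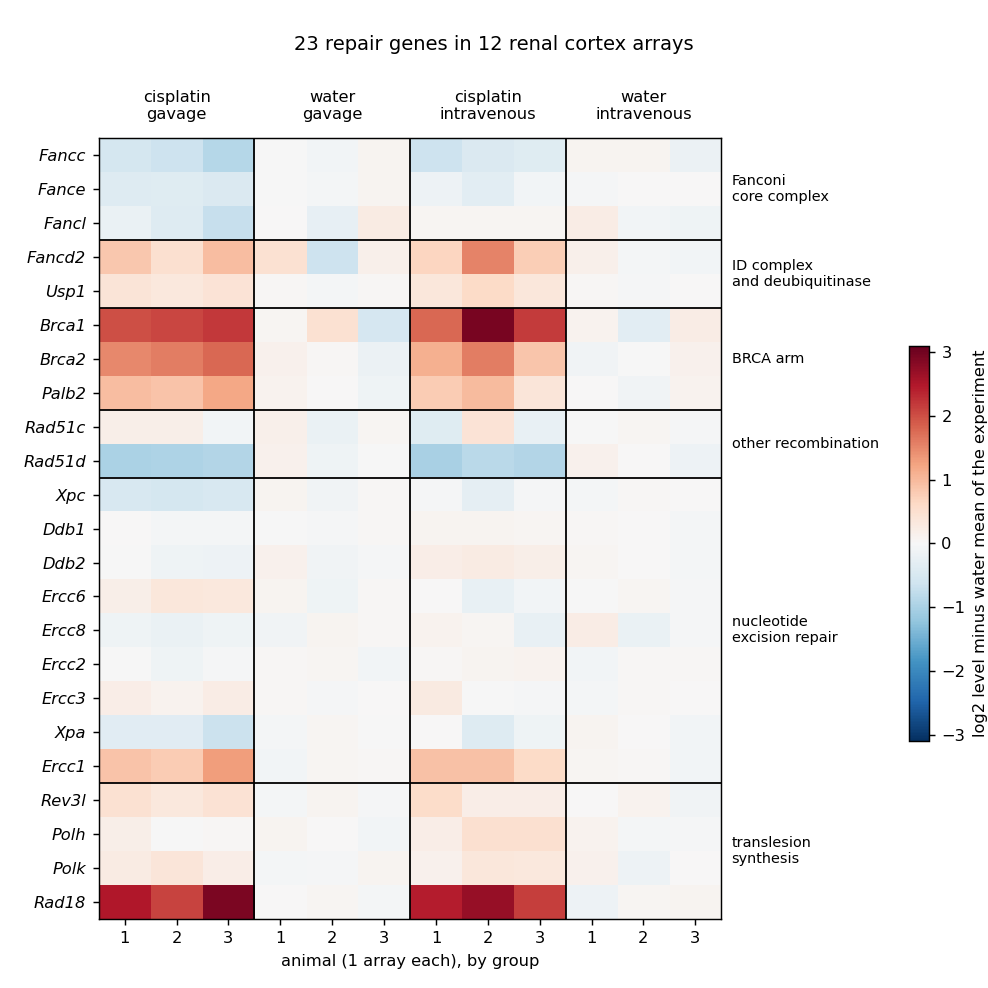
Heat map of the 23 repair genes tested (rows, grouped by role) in the 12 animals (columns), coloured by the log2 level minus the mean of the water group of the same experiment. Rad18, Brca1, Brca2, Palb2 and Ercc1 are red in all 6 cisplatin animals, Rad51d and Fancc are blue in all 6, and most excision repair genes stay pale on this scale. With spike-in scaling Fancc passes in neither experiment and Rad51d passes after injection alone.

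In both experiments the same 9 genes rose: Fancd2, Usp1, Brca1, Brca2, Palb2, Ercc1, Rev3l, Polk and Rad18. Brca1 is counted here by its fitted change, has only a lower bound, and entered the test only through the cisplatin gavage group. Of all features, 22.0% rose in both. Rad51d and Fancc fell in both, as did 23.5% of all features; with spike-in scaling Rad51d stayed lower (-0.28 and -0.36) and passed only after injection, and Fancc changed by -0.02 after gavage and by 0.07 after injection. No gene tested moved in opposite directions. Fance, Fancl, Xpc, Xpa and Ercc6 passed in the gavage experiment alone and Polh in the intravenous one alone, while Rad51c, Ddb1, Ddb2, Ercc8, Ercc2 and Ercc3 passed in neither. The 3 cisplatin arrays lay entirely beyond the 3 water arrays for 17 of 23 genes after gavage (67.0% of all features) and for 14 of 23 after injection (66.0% of all features).

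**Figure D2:**
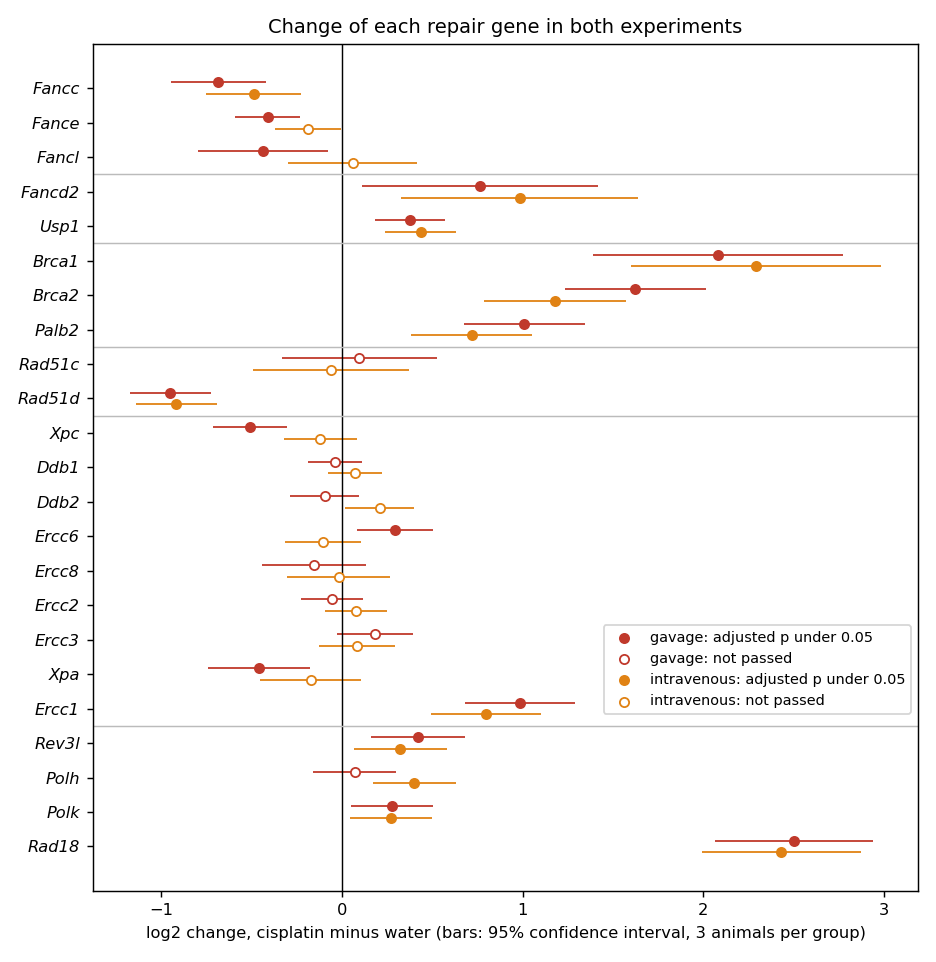
Log2 change of each repair gene, cisplatin minus water, in the gavage (red) and intravenous (orange) experiments, with 95% confidence intervals from 3 animals per group. Filled points passed at an adjusted p under 0.05. The largest fitted rise is Rad18 (2.50 and 2.43), the 2 genes lower in both are Fancc and Rad51d, and the fitted Brca1 change is set against water arrays that were not well above background, so that Brca1 and Rad18 cannot be ranked. With spike-in scaling the median of all features lies at 0.67 and 0.50 instead of near 0, and all points move right with it.

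Promoters of the genes that moved together were set side by side. RefSeq promoters of 250 bases before to 50 bases after the transcription start, on assembly GRCr8, were found for 34 of the 37 genes (38 promoters). E2F factors, which drive the genes of the S phase, bind sites with the letters TTTCCCGC, TTTCGCGC, TTTGCCGC or TTTGGCGC. These letters, searched on both strands, stood in 7 of the 38 promoters (18.4%), against 716 of all 33469 promoters of the table (2.14%). The median GC content was 58.5% in the 38 promoters and 51.7% in all promoters. The CCAAT box (CCAAT) stood in 39.5% of the repair promoters and 37.5% of all promoters, and the CHR element (TTTGAA) in 15.8% and 18.3%. The promoters that held the E2F letters were those of Fancd2, Usp1, Polk, Fancc, Fancl, Rad51d and Msh6. Of these, Fancd2, Usp1 and Polk rose, Rad51d and Fancc fell in both experiments and Fancl after gavage, and Msh6 is not analysed here. The falls of Fancc and Fancl did not hold with spike-in scaling, nor did that of Rad51d after gavage. Of the 9 genes higher in both experiments, which include Brca1 with only a bound, 3 of 9 promoters held them. Of the other genes tested 3 of 12 did. A match of letters describes the sequence and shows no binding.

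The promoters of Fancd2 (chr4:148234458-148234757, + strand) and Usp1 (chr5:118702806-118703105, + strand), which rose in both experiments, and of Rad51d (chr10:68321853-68322152, - strand) and Fancc (chr17:1686839-1687138, + strand), which were lower in both by the main scaling, are printed because all 4 hold the E2F letters and their genes moved in different directions. The promoter of Rad18 (chr4:147376820-147377119, - strand), the gene with the largest fitted rise, held none of the 3 motifs. Each runs 5′ to 3′ in the direction of the gene, with the E2F letters of either strand in capitals.
Fancd2: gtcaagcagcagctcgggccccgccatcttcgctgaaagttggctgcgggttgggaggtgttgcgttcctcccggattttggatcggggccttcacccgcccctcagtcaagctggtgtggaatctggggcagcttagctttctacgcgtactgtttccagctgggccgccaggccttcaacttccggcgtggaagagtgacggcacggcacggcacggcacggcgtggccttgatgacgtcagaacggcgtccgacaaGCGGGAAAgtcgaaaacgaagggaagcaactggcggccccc
Usp1: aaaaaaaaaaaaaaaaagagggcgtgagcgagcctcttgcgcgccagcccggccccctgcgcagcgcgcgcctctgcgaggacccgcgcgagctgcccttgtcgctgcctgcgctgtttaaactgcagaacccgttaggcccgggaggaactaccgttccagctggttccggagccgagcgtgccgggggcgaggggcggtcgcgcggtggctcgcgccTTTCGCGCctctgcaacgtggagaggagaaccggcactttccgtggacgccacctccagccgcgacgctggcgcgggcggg
Rad51d: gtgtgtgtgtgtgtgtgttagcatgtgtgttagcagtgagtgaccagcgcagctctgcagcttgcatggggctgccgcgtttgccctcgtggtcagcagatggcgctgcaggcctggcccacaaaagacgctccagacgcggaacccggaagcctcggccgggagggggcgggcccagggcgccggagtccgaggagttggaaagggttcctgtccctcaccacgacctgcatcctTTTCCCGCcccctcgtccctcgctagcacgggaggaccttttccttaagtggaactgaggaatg
Fancc: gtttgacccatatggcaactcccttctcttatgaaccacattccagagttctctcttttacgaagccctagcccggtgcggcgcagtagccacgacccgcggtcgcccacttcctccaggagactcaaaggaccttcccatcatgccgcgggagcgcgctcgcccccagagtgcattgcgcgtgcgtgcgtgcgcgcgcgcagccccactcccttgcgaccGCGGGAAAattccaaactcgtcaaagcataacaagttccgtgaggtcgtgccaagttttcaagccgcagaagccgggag
Rad18: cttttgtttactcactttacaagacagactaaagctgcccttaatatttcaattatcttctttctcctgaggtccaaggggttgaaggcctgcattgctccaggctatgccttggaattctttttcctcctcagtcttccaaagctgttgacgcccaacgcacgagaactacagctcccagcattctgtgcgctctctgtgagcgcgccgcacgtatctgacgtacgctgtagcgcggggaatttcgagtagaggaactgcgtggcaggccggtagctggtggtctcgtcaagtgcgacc

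The Fanconi core complex is the ubiquitin ligase of the pathway, and 3 of its 7 listed subunits were measured. All 3 fell after gavage and Fancc alone passed after injection. Fancc, a structural subunit, had levels of -0.96, -1.07 and -1.31 in the cisplatin gavage rats, against -0.44, -0.50 and -0.35 in the water gavage rats. It had -1.04, -0.85 and -0.79 in the cisplatin intravenous rats, against -0.31, -0.32 and -0.58 in the water intravenous rats. The groups did not overlap in either experiment. The changes were -0.68 ± 0.12 (SE, 1.61-fold lower, limma adjusted p = 6.65e-04) and -0.49 ± 0.12 (1.40-fold lower, adjusted p = 0.00546), neither of which held with spike-in scaling.

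Fance, which joins the core complex to FANCD2, had -0.81, -0.78 and -0.86 in the cisplatin gavage rats against -0.41, -0.47 and -0.32 in the water gavage rats. This was a change of -0.41 ± 0.08 (adjusted p = 0.00152), which was 0.25 with spike-in scaling and then did not pass. After injection Fance changed by -0.19 ± 0.08 (adjusted p = 0.0704), although its groups did not overlap, and with spike-in scaling it passed as higher (0.37, adjusted p = 0.0247). A second Fance probe gave -0.41 after gavage and -0.30 after injection, and passed in both. Fancl, the catalytic subunit that transfers ubiquitin, changed by -0.44 ± 0.16 after gavage (adjusted p = 0.0379) and by 0.06 ± 0.16 after injection. Its gavage groups overlapped. The gavage call was lost without cisplatin gavage replicate 2 or 3 or water gavage replicate 1 or 3 (-0.30 to -0.46). It was also lost with slide as a fixed block (-0.20). Scaling by the spike-in probes gave 0.23 after gavage, which did not pass, and 0.62 after injection, which passed as higher.

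FANCD2 is the protein that the core complex marks with ubiquitin, and USP1 is the protease that takes the mark off again, from FANCD2 and from PCNA. Both genes rose in both experiments. Fancd2 was dim, at -3.48, -3.82 and -3.38 in the cisplatin gavage rats against -3.85, -4.96 and -4.16 in the water gavage rats. It was at -3.72, -2.83 and -3.61 in the cisplatin intravenous rats against -4.22, -4.43 and -4.46 in the water intravenous rats. Every cisplatin array lay above every water array in both experiments, although water gavage replicate 2 stood well below the other water arrays. The changes were 0.76 ± 0.29 (1.70-fold, adjusted p = 0.0454) and 0.98 ± 0.29 (1.98-fold, adjusted p = 0.0157). The gavage call was lost in 8 of 12 fits that left out 1 array, with a change of 0.45 without water gavage replicate 2. It was also lost with slide as a fixed block (0.84, adjusted p = 0.145). The intravenous call was lost without cisplatin intravenous replicate 2 (0.71, adjusted p = 0.0579). With normexp background correction neither call held (0.20, adjusted p = 0.322, and 0.36, adjusted p = 0.0932).

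Usp1 had 0.10, 0.02 and 0.13 in the cisplatin gavage rats against -0.27, -0.36 and -0.25 in the water gavage rats. It had -0.06, 0.20 and -0.05 in the cisplatin intravenous rats against -0.37, -0.45 and -0.39 in the water intravenous rats. The shift was small and the arrays of a group lay close together. The changes were 0.38 ± 0.09 (1.30-fold, adjusted p = 0.00407) and 0.44 ± 0.09 (1.35-fold, adjusted p = 0.00194). A second, dimmer probe of Usp1 gave 0.57 and 0.69, both passed.

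Brca2 and Palb2 of the BRCA arm rose in both experiments, and Brca1 was measured only as a bound. BRCA2 acts in the strand exchange of recombination, PALB2 holds BRCA2 to BRCA1, and BRCA1 acts at the start of strand resection. Brca2 had -0.62, -0.53 and -0.34 in the cisplatin gavage rats against -1.98, -2.07 and -2.30 in the water gavage rats. It had -0.89, -0.39 and -1.13 in the cisplatin intravenous rats against -2.10, -1.99 and -1.85 in the water intravenous rats. All 6 cisplatin arrays lay above all 6 water arrays. The changes were 1.62 ± 0.18 (3.08-fold, adjusted p = 3.26e-05) and 1.18 ± 0.18 (2.26-fold, adjusted p = 3.25e-04). A second Brca2 probe, well above background on all 12 arrays, gave 1.06 and 1.20, both passed.

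Palb2 had -1.84, -1.93 and -1.61 in the cisplatin gavage rats against -2.70, -2.79 and -2.92 in the water gavage rats. It had -1.93, -1.74 and -2.33 in the cisplatin intravenous rats against -2.71, -2.84 and -2.62 in the water intravenous rats. The groups did not overlap. The changes were 1.01 ± 0.15 (2.01-fold, adjusted p = 2.59e-04) and 0.72 ± 0.15 (1.64-fold, adjusted p = 0.00248).

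Brca1 was the dimmest gene tested. It was well above background on 3 of 3 cisplatin gavage arrays, on 1 of 3 cisplatin intravenous arrays and on none of the 6 water arrays, so that its fold has only a bound. Its levels were -5.53, -5.48 and -5.36 in the cisplatin gavage rats against -7.48, -7.07 and -8.07 in the water gavage rats. They were -5.91, -4.74 and -5.53 in the cisplatin intravenous rats against -7.59, -8.01 and -7.47 in the water intravenous rats. Brca1 was at least 1.19-fold higher in cisplatin than in water gavage rats and at least 1.12-fold higher in cisplatin than in water intravenous rats. The bound sets the cisplatin mean against the faintest signal that counted as detected on the water arrays. The intravenous bound rests on cisplatin replicate 2, the only array of its group well above background. Without it the cisplatin mean lay below the faintest detected signal and no bound was left. The p-values belong to the fitted changes, 2.08 (limma adjusted p = 2.53e-04) and 2.29 (adjusted p = 1.83e-04), which use the undetected water values. They are no support of their own, because Brca1 entered the test only through the cisplatin gavage group. With normexp background correction, whose offset of 50 compresses differences between dim values, the gavage change was 0.01 and did not pass (adjusted p = 0.914), and the intravenous change was 0.24 (adjusted p = 0.0384).

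The other recombination factors listed (Rad51b, Rad51c, Rad51d, Xrcc2 and Xrcc3) assist strand exchange, and 3 of the 5 were matched to a probe by accession. Rad51d fell in both experiments. It had -2.36, -2.35 and -2.31 in the cisplatin gavage rats against -1.25, -1.53 and -1.40 in the water gavage rats. It had -2.31, -2.15 and -2.21 in the cisplatin intravenous rats against -1.18, -1.28 and -1.46 in the water intravenous rats. All 6 cisplatin arrays lay below all 6 water arrays. The changes were -0.95 ± 0.10 (1.93-fold lower, adjusted p = 2.75e-05) and -0.92 ± 0.10 (1.89-fold lower, adjusted p = 5.33e-05). With spike-in scaling the gavage change did not pass (adjusted p = 0.0684) and the intravenous change did (adjusted p = 0.0321). A second Rad51d probe gave -0.73 and -0.42, both passed. Rad51c changed by 0.10 ± 0.19 after gavage (95% interval -0.33 to 0.53) and by -0.06 ± 0.19 after injection (-0.49 to 0.37), and passed in neither. With spike-in scaling these were 0.76, which passed, and 0.50, which did not. Xrcc2 was well above background on cisplatin gavage replicate 3 alone and was not tested.

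**Figure D3:**
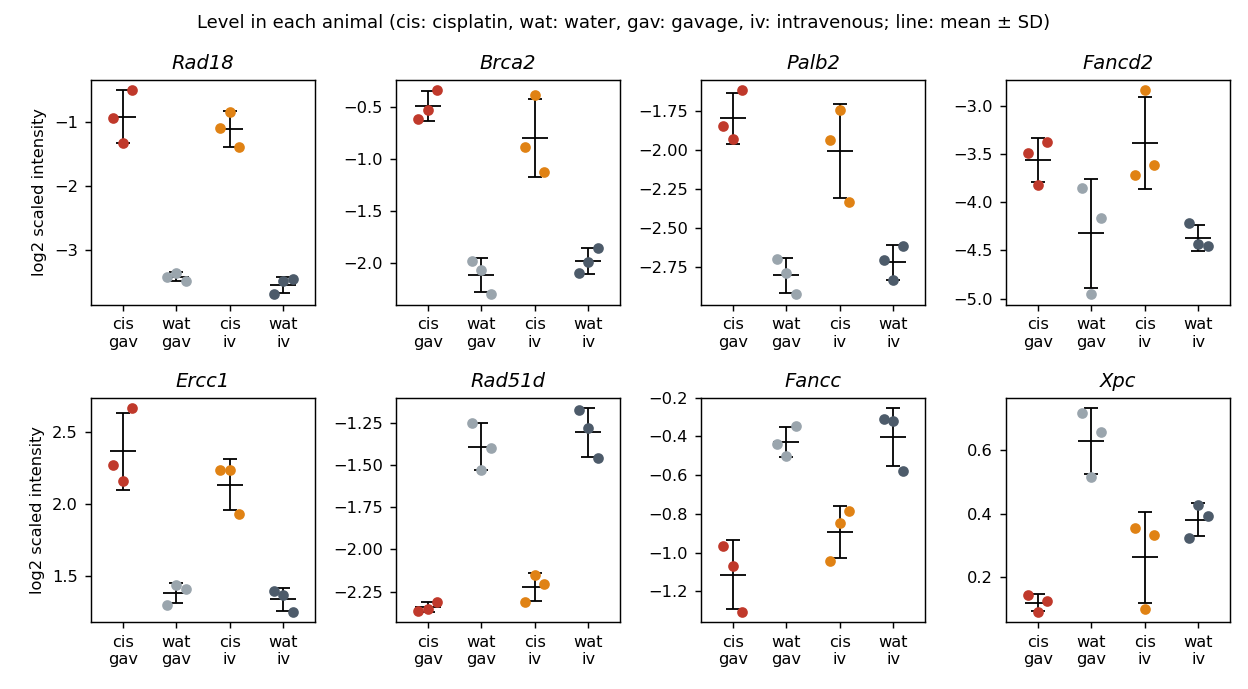
Log2 scaled intensity of 8 repair genes in each animal (points), with the mean and SD of each group of 3 (lines); cis is cisplatin, wat water, gav gavage and iv intravenous, and the vertical scale differs between panels. Rad18, Brca2, Palb2, Fancd2 and Ercc1 are higher in both cisplatin groups, Rad51d and Fancc are lower in both, and Xpc is lower after cisplatin gavage. The lower levels of Fancc and Xpc are not seen with spike-in scaling.

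Nucleotide excision repair was the largest group, with 9 of 11 listed genes tested. After gavage 2 genes rose, 2 fell and 5 did not pass. After injection Ercc1 rose and the other 8 did not pass. With spike-in scaling 7 of the 9 were higher and 0 lower after gavage, and all 9 were higher after injection. Of all 34444 features, 21574 were higher with this scaling after gavage and 18418 after injection. Ercc1, whose product forms the nuclease that cuts on the 5′ side of the damage and also acts in crosslink repair, had 2.27, 2.16 and 2.67 in the cisplatin gavage rats against 1.30, 1.44 and 1.41 in the water gavage rats. It had 2.24, 2.24 and 1.93 in the cisplatin intravenous rats against 1.40, 1.37 and 1.25 in the water intravenous rats. The groups were well apart. The changes were 0.98 ± 0.14 (1.98-fold, adjusted p = 1.66e-04) and 0.80 ± 0.14 (1.74-fold, adjusted p = 7.73e-04). A second Ercc1 probe gave 0.98 and 0.89, both passed.

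Xpc, the sensor of helix distortion that starts repair outside transcribed strands, had 0.14, 0.09 and 0.13 in the cisplatin gavage rats against 0.72, 0.51 and 0.66 in the water gavage rats. The change was -0.51 ± 0.09 (1.42-fold lower, adjusted p = 8.19e-04), and it was 0.16 with spike-in scaling, which did not pass. In the cisplatin intravenous rats Xpc had 0.35, 0.10 and 0.33 against 0.32, 0.43 and 0.39 in the water intravenous rats, and these groups overlapped. The change there was -0.12 ± 0.09 (adjusted p = 0.283), and 0.44 with spike-in scaling, which passed as higher. Xpa, which verifies the damage and places the nucleases, changed by -0.46 ± 0.13 after gavage (adjusted p = 0.00978) and by -0.17 ± 0.13 after injection. The gavage change of Xpa did not pass with slide as a fixed block (-0.35, adjusted p = 0.138) and was 0.21 with spike-in scaling, under which the intravenous change was 0.39 and passed as higher (adjusted p = 0.0429).

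The genes that couple repair to transcription gave readings that depended on the probe. Ercc6, which encodes the CSB remodeller that acts at stalled polymerases, changed by 0.29 ± 0.09 after gavage (adjusted p = 0.0223) and by -0.10 ± 0.09 after injection, where spike-in scaling gave 0.46 and a call as higher. The gavage call was lost without water gavage replicate 2, without cisplatin gavage replicate 2 or 3 (0.22 to 0.27), with slide as a fixed block (0.19) and with normexp background correction (0.21). A dimmer probe of Ercc6 passed as higher after injection (0.52, adjusted p = 0.0150) and gave 0.14 after gavage. Ercc8, which encodes the CSA ubiquitin ligase subunit, changed by -0.16 ± 0.13 and -0.02 ± 0.13 and passed in neither, but with spike-in scaling it passed as higher in both (0.51 and 0.54). A dimmer Ercc8 probe passed as higher in both, by 0.27 (adjusted p = 0.0330) and 0.46 (adjusted p = 0.00247). A further Ercc8 probe, brighter than that one, gave -0.24 and -0.07 and passed in neither.

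The genes of the damage-binding proteins and the TFIIH helicases passed in neither experiment by the main scaling. Ddb1, the adaptor of a ubiquitin ligase that senses bulky damage, was bright, at 2.67 ± 0.04 in cisplatin gavage rats and 2.71 ± 0.03 in water gavage rats (SD, n = 3 each). Its change was -0.04 after gavage (95% interval -0.19 to 0.11) and 0.07 after injection (-0.08 to 0.22). Ddb2, the subunit that touches the damage, changed by -0.10 (-0.29 to 0.09) and 0.21 (0.02 to 0.40, adjusted p = 0.0591). Ercc2 and Ercc3, the TFIIH helicases, changed by -0.06 (-0.23 to 0.12) and 0.18 (-0.03 to 0.39) after gavage and by 0.08 (-0.10 to 0.25) and 0.08 (-0.13 to 0.29) after injection. These intervals are relative to the 75th percentile, and with spike-in scaling Ddb1, Ddb2, Ercc2 and Ercc3 passed as higher in both experiments, by 0.57 to 0.85. With quantile normalization Ercc3 passed as higher in both experiments and Ddb1 after injection. With normexp background correction Ercc2 passed as lower after gavage (-0.21, limma adjusted p = 0.0225).

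Translesion synthesis lets a fork copy past an adduct. RAD18 attaches ubiquitin to PCNA and so calls in the translesion polymerases, and its gene had the largest fitted change of the 23, although Brca1, with only a lower bound, cannot be ranked against it. Rad18 had -0.92, -1.31 and -0.49 in the cisplatin gavage rats against -3.41, -3.34 and -3.49 in the water gavage rats. It had -1.09, -0.84 and -1.39 in the cisplatin intravenous rats against -3.69, -3.48 and -3.45 in the water intravenous rats. Every cisplatin array lay far above every water array. The changes were 2.50 ± 0.20 (5.67-fold, adjusted p = 4.99e-06) and 2.43 ± 0.20 (5.40-fold, adjusted p = 1.03e-05). Both passed under every alternative run.

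Rev3l, the catalytic subunit of polymerase zeta, had 0.52, 0.36 and 0.49 in the cisplatin gavage rats against -0.03, 0.12 and 0.01 in the water gavage rats. It had 0.50, 0.12 and 0.13 in the cisplatin intravenous rats against -0.07, 0.05 and -0.19 in the water intravenous rats. After injection cisplatin replicate 1 stood above the other 2 cisplatin arrays. The changes were 0.42 ± 0.12 (1.34-fold, adjusted p = 0.0100) and 0.32 ± 0.12 (1.25-fold, adjusted p = 0.0353). The intravenous call was lost without cisplatin intravenous replicate 1 (0.20) and without water intravenous replicate 1 or 3 (0.32 and 0.26), while 2 dimmer Rev3l probes gave 0.56 and 0.71 there and passed.

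Polk, the polymerase kappa gene, had 0.03, 0.14 and -0.04 in the cisplatin gavage rats against -0.29, -0.27 and -0.14 in the water gavage rats. It had -0.16, 0.08 and 0.04 in the cisplatin intravenous rats against -0.15, -0.44 and -0.27 in the water intravenous rats, where the groups overlapped. The changes were 0.28 ± 0.10 (1.21-fold, adjusted p = 0.0392) and 0.27 ± 0.10 (1.21-fold, adjusted p = 0.0432). Leaving out 1 array ended the call in 5 of 12 fits after gavage (0.23 to 0.28) and in 8 of 12 after injection (0.19 to 0.28). The gavage call was also lost with slide as a fixed block (0.26, adjusted p = 0.180), the intravenous call with normexp background correction (0.18), and both with the replicate block (adjusted p = 0.0670 and 0.0725). Polh, the polymerase eta gene, whose product can insert bases opposite platinum adducts, had -2.07, -1.79 and -1.77 in the cisplatin intravenous rats against -2.17, -2.35 and -2.31 in the water intravenous rats. This was a rise of 0.40 ± 0.10 (1.32-fold, adjusted p = 0.00761), which did not pass with normexp background correction (0.13). After gavage Polh changed by 0.07 ± 0.10 (95% interval -0.16 to 0.30).

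**Figure D4:**
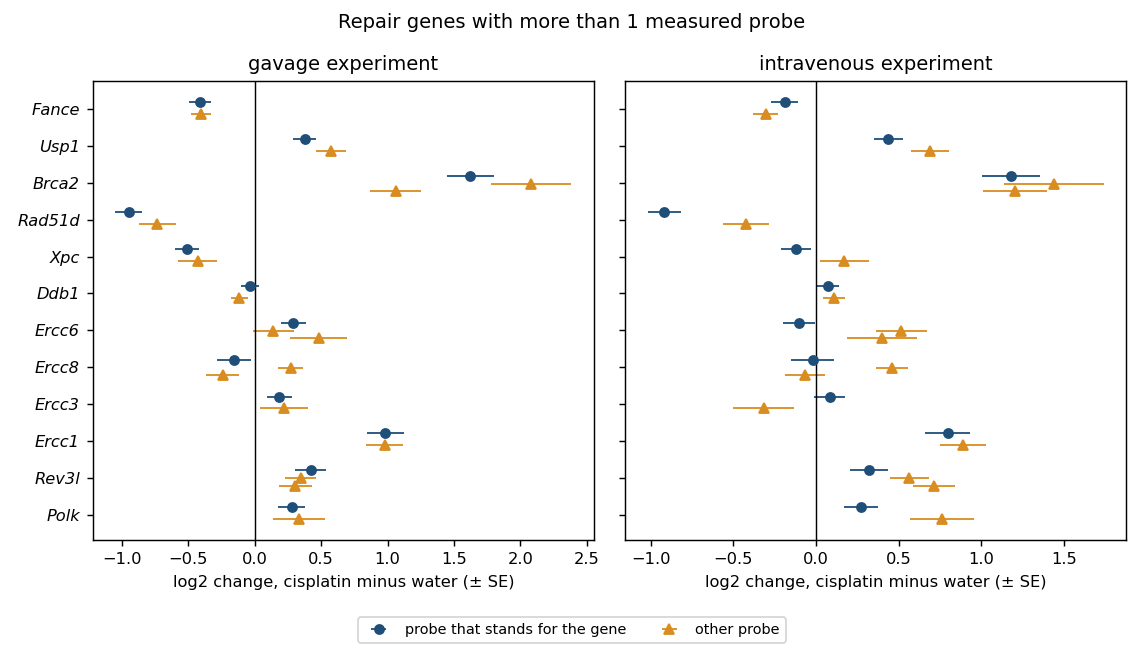
Log2 change, cisplatin minus water, of each measured probe of the 12 repair genes with several probes, in the gavage (left) and intravenous (right) experiments, with SE. Circles are the probe that stands for the gene and triangles its other probes. Of 16 other probes, 15 had the sign of the circle after gavage and 11 after injection, with the probes of Ercc8 on both sides of 0 in each experiment and those of Ercc6, Xpc and Ercc3 after injection.

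For the 12 genes with several probes, the other probes of called genes mostly repeated the call. After gavage 8 of 12 such probes passed in the same direction, and after injection 8 of 8. Probes of a gene lie at different places of its transcripts and differ in brightness, and levels are not compared between them.

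No repair gene passed the test of a difference in the cisplatin effect between the experiments. In the contrast of the intravenous minus the gavage effect, 0 of 23 repair genes passed (limma), while 1.20% of all features passed (0.168% higher, 1.03% lower). Under an unadjusted p of 0.05 in the same limma fit lay 4 repair genes, for which the share of all features was not counted. Those 4 were Xpc (0.39 ± 0.13, 95% interval 0.10 to 0.68, adjusted p = 0.147), Ercc6 (-0.39 ± 0.13, adjusted p = 0.156), Ddb2 (0.30 ± 0.12, adjusted p = 0.209) and Polh (0.33 ± 0.15, adjusted p = 0.251). A gene that passed in one experiment alone is therefore not shown to differ between them. For Rad18 the difference was -0.07 (-0.69 to 0.55) and for Palb2 -0.29 (-0.77 to 0.18). The water groups, set against each other as a background, gave 0 of 23 genes at an adjusted p under 0.05 (intravenous minus gavage, limma). At that threshold 0.00% of all features passed. At an unadjusted p under 0.05 there were 2 repair genes, again with no share of all features counted. The median SD within a group was 0.09 for the repair genes in cisplatin gavage rats and 0.08 in water gavage rats, and 0.17 in cisplatin intravenous rats and 0.09 in water intravenous rats. For all features it was 0.18, 0.13, 0.19 and 0.13 in the same order of groups.

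The arrays of a cisplatin group did not stand alike. Of the 9 genes that rose in both experiments, 7 had their highest cisplatin gavage level in replicate 3, and 7 their highest cisplatin intravenous level in replicate 2. The 9 include Brca1, which has only a bound. The share of all features highest in these arrays was not counted, so the pattern is not shown to be particular to repair genes. The summed linear level of 23 genes of dividing cells (such as Mki67, Ccnb1 and Mcm helicase subunits) was 48.4, 46.2 and 56.5 times the 75th percentile in the cisplatin gavage rats, against 17.2, 14.9 and 13.3 in the water gavage rats. It was 36.7, 73.2 and 43.1 in the cisplatin intravenous rats against 19.5, 14.5 and 14.4 in the water intravenous rats. The same replicates, gavage 3 and intravenous 2, had the highest sums of their groups. Of these 23 genes 21 rose after gavage and 22 after injection, and Aurkb was not well above background in the water gavage rats. The part of dividing cells in the rise of the repair genes was not tested.

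Markers of other cells moved as well. Of 6 macrophage markers 5 rose in each experiment, with a summed level of 10.5 to 17.8 in cisplatin gavage rats against 3.75 to 4.14 in water gavage rats, and 10.5 to 14.4 in cisplatin intravenous rats against 3.79 to 5.83 in water intravenous rats. Cd163 was not well above background on any water array and entered the test only through cisplatin arrays. All 5 fibroblast markers rose in each, with sums of 65.2 to 97.2 in cisplatin gavage rats against 11.9 to 18.2 in water gavage rats, and 46.9 to 91.3 in cisplatin intravenous rats against 10.8 to 16.4 in water intravenous rats. Lum was not well above background on any water array and entered the test only through cisplatin arrays, where it was high. With normexp background correction 4 of the 5 fibroblast markers rose in each experiment. Of 6 T and B cell markers 1 rose after gavage and 3 after injection, with sums of 2.54 to 2.97 in cisplatin gavage rats against 1.99 to 2.59 in water gavage rats, and 2.58 to 5.22 in cisplatin intravenous rats against 1.82 to 2.21 in water intravenous rats. With spike-in scaling 3 and 4 of these 6 rose, and with normexp background correction 0 rose and 2 fell after gavage. Of 12 p53 target genes outside repair, 11 rose in each experiment, with a summed level of 169 to 180 in cisplatin gavage rats against 24.2 to 28.9 in water gavage rats, and 136 to 179 in cisplatin intravenous rats against 26.9 to 27.8 in water intravenous rats. All 5 distal markers (distal tubule and thick ascending limb) fell in each experiment, under spike-in scaling too. Of 5 collecting duct markers 3 fell after gavage and 4 after injection (3 and 1 with spike-in scaling, under which 1 rose after gavage). Podocyte markers fell in 3 of 4 in each experiment and in none with spike-in scaling, under which 1 rose after injection. Of 4 endothelial markers 2 fell after gavage and 1 after injection, while 2 rose and 1 fell in each with spike-in scaling. The part of these cells in the changes of the repair genes was not tested.

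**Figure D5:**
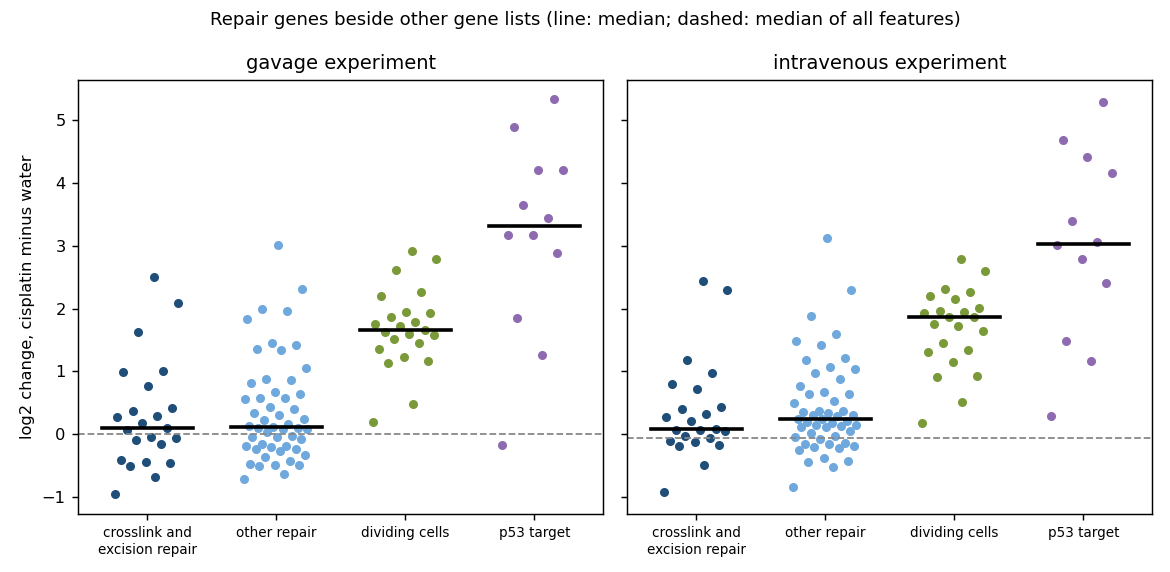
Log2 change, cisplatin minus water, of each gene tested (points) in 4 gene lists, in the gavage (left) and intravenous (right) experiments; the black line is the list's median and the dashed line the median of all features. The 23 crosslink and excision repair genes scatter on both sides of the dashed line, as do the 52 other repair genes, while nearly all dividing cell and p53 target genes lie above it.

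A wider list of 69 other repair genes, 53 of them matched to a probe by accession and 52 tested, held partners of the same pathways. In the gavage experiment 23 of these rose and 8 fell, with a median of 0.12. The share called was 59.6%, against 59.3% of all features. In the intravenous experiment 23 rose and 4 fell, with a median of 0.25, and 51.9% were called against 58.4% of all features. In both, 20 rose and 4 fell, as 22.0% and 23.5% of all features did. Eme1 and Rad54b, counted among those that rose, had entered the test only through the cisplatin groups, where they were high. Eme1 was well above background on 0 of 3 water arrays in each experiment, and Rad54b on 1 of 3. Eme1 was at least 2.77-fold higher after gavage and at least 2.29-fold higher after injection. With spike-in scaling 42 rose after gavage and 43 after injection, and 0 fell. Of all 34444 features, 21574 and 18418 then rose and 3250 and 3190 fell.

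Ube2t, the ubiquitin-conjugating enzyme of the Fanconi core complex, changed by 2.31 ± 0.45 (4.96-fold, adjusted p = 0.00131) and 2.30 ± 0.45 (4.91-fold, adjusted p = 0.00157). Its intravenous arrays were uneven, at -1.64, 0.16 and -0.87 in the cisplatin rats against -2.30, -3.05 and -3.90 in the water rats. The SD was 0.90 and 0.80 there, against 0.10 and 0.13 in the cisplatin and water gavage rats. Ube2b, a ubiquitin-conjugating enzyme that works with RAD18, had 3.55, 3.63 and 3.37 in the cisplatin gavage rats against 4.22, 4.26 and 4.21 in the water gavage rats, a change of -0.71 ± 0.10 (1.64-fold lower, adjusted p = 1.84e-04). After injection its change was -0.52 ± 0.10 (adjusted p = 0.00156). Gtf2h3, a TFIIH subunit, changed by -0.49 ± 0.10 (adjusted p = 0.00175) and -0.83 ± 0.10 (adjusted p = 8.68e-05). Fan1 and Nbn were the other genes of this list lower in both, and none of these 4 passed with spike-in scaling, where Ube2b changed by -0.04 and 0.04 and Gtf2h3 by 0.18 and -0.27.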

How the data were processed

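The authors read the spots of 12 arrays (1 per animal) with Feature Extraction 10.7 from Agilent, as named in the submitters' processing notes. Per the file headers, the deposited processed intensity is background-subtracted within an array and not normalized between arrays. A value table deposited by the authors holds a linear ratio of this intensity to the 75th percentile of its array, as its match to the scanner values showed, and served as an alternative.

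Here log2 intensities were set relative to the 75th percentile of each array, without 1439 control spots and 82 spots marked as uneven. Of 61537 probes, 28206 were named through a RefSeq table (GRCr8, names only). Of several probes of a gene the one with the highest mean over 12 arrays stood for it. Features (named genes and unnamed probes) entered the test when some group had all 3 of its arrays well above background, which left 34444 of 48976. The fit used limma 3.58.1 (R 4.3.3) on the 4 group means of the 12 arrays, with 8 residual and 2.09 prior degrees of freedom. Tests were two-sided and p-values were adjusted by Benjamini-Hochberg. The code was tested on simulated data. No probe was saturated. Precision is limited by the number of arrays. The p-values rest on 3 animals per group, which the labels call biological replicates.

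The rule that names the repair genes uses no measured value, but these genes and all other lists were chosen with earlier results of these data known. Full values are given for genes past the test in both experiments and for the largest rise and fall of each role, other genes by counts and ranges, and 2 rises and 2 falls of the other repair genes, of which 1 rise is not reported here; values of further genes were added after they were seen. Slide 1 held the 3 water gavage arrays and cisplatin gavage replicate 1, slide 2 the other gavage cisplatin arrays and the 3 water intravenous arrays, and slide 3 the 3 cisplatin intravenous arrays, so that slide and cisplatin cannot be told apart in the intravenous experiment. The alternatives were other scalings, background corrections, probe filters, probes, blocks and left-out arrays.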

Additional observations from a re-analysis of the deposited data

How the results depend on the processing

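With spike-in scaling the counts were 17 higher and 0 lower after gavage and 20 higher and 1 lower after injection. Those of all 34444 features were 21574 higher and 3250 lower after gavage and 18418 higher and 3190 lower after injection. The gavage changes of Fance, Fancl, Xpc and Xpa were then 0.25, 0.23, 0.16 and 0.21, and those of Ddb1, Ddb2, Ercc8 and Ercc2 were 0.63, 0.57, 0.51 and 0.61. The intravenous changes of Fancc, Fance, Xpc, Ercc6, Ercc8 and Xpa were 0.070, 0.37, 0.44, 0.46, 0.54 and 0.39. This turn follows from the shift of all features. Other probes turned the sign for Ercc8 (0.27 after gavage and 0.46 after injection) and for Ercc6 after injection (0.52), each a call by that probe, and, without a call, for Xpc (0.17), Ercc3 (-0.32) and a further probe of Ercc6 (0.40) after injection; the cause was not tested. Leaving out 1 array gave 7 to 11 higher and 5 to 6 lower after gavage and 8 to 10 higher and 2 lower after injection, and 0 in the difference and in the water comparison. Fancl, Fancd2, Ercc6 and Polk lost the gavage call in some of these fits and Fancd2, Rev3l and Polk the intravenous call. Arrays of the same replicate number did not deviate together within an experiment (r = -0.11 to 0.06). Such correlations, of deviations from means of 3 arrays, cannot exclude that the numbers pair animals. With the replicate block 8 genes were higher and 6 lower after gavage and 9 and 2 after injection. With slide as a fixed block 7 were higher and 4 lower after gavage, a fit in which 1 cisplatin array is set against the 3 water arrays of its slide and is assumed to vary like the other groups. That block could not be fitted for the intravenous comparison or the difference, and the fit of 6 arrays applies to neither the difference nor the water comparison. The normexp alternative used the median spot signal. It gave 7 higher and 7 lower after gavage and 7 higher and 2 lower after injection. Brca1 and Xrcc2 lie near background and Fancd2 is dim, which limits their values. Fancd2 was nevertheless well above background on all 3 arrays of each group.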
